A study of Mus musculus with 24 samples.

Results

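X-GFP–medium cells were compared with X-GFP–negative cells at day 7 of reprogramming without interferon γ (IFNγ). This is the first step of reactivation of the X-linked reporter. All genes with a mean above 10 normalized counts in the 4 libraries of these populations were included, which were 15382 of the 37315 genes in the table. Each population had 2 libraries, of 24 libraries in the series.

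The cells came from PaX, 1 hybrid 129S1/SvImJ, CAST/EiJ female embryonic stem cell (ESC) line. It carries a GFP reporter in the Hprt locus of the 129S1/SvImJ X chromosome (X mus), a truncation of Tsix on X mus so that this X is the one inactivated upon differentiation, a doxycycline-inducible MKOS cassette (Myc, Klf4, Oct4 and Sox2) with rtTA, and an RFP reporter driven by a Nanog promoter. Neural precursor cells (NPCs) made from these ESCs were reprogrammed by adding doxycycline, on feeders of male irradiated embryonic fibroblasts and in serum medium with LIF and ascorbic acid, and both populations shared all of this. At day 7, a magnetic enrichment for SSEA1 preceded the sort. In the sort, SSEA1-positive cells were divided by X-GFP into the negative and medium populations, neither of which had received IFNγ. The populations were divided by an X-linked reporter, so changes of X-linked genes are tied to the gate. The study's methods call the replicates independent, while the labels do not say whether they came from separate cultures. If they did not, p-values measure only the spread between these libraries, which may be technical.

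In female mammals, 1 X chromosome is silenced in differentiated cells. The noncoding RNA Xist coats that chromosome and recruits repressive complexes, and the naive pluripotency network restrains Xist. In induced pluripotent stem cells the inactive X becomes active again, a late event of reprogramming that goes together with a naive pluripotent state, in which germline genes are also often expressed from demethylated promoters.

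Per library, 28443041 to 29875843 reads on genes were recovered from the normalized counts, and 1 read was worth 0.988 to 1.10 normalized counts. The mitochondrial ribosomal RNA mt-Rnr2 took 19% of the total in both X-GFP–negative libraries and 17% in both X-GFP–medium libraries. The 6 listed Y-linked genes, which mark the male feeders, summed to 3.29 and 1.07 normalized counts in X-GFP–negative and to 4.94 and 2.07 in X-GFP–medium libraries. At day 2 these genes had summed to 125 to 254. The summed level of the 20 fibroblast markers was 15650 and 14255 in X-GFP–negative libraries and 13153 and 12374 in X-GFP–medium libraries. The part of these differences in the results was not tested.

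Of the genes tested, 3363 (21.9%) were higher and 3871 (25.2%) lower in X-GFP–medium than in X-GFP–negative cells, 47.0% in all, by limma with an adjusted p below 0.1. The median absolute log2 change of these genes was 0.39, and most changes were small. The counts of list members given below are to be read beside these shares of 21.9% higher and 25.2% lower. Changes of at least 2-fold were seen for 518 genes that rose and 413 that fell, and of at least 4-fold for 117 and 42. Log2 changes, and the counts of 2-fold and 4-fold changes, are on the scale of log2(normalized count + 1), which understates the change of low genes. Fold values of single genes are ratios of the group means without this addition. When the values of each library were rescaled to the same total in place of the deposited size factors, 4408 genes were higher and 2912 lower, so that the share of higher genes among those called went from 46.5% to 60.2%. The median over all genes tested was -0.02 and moved by 0.07 with this scaling. The totals used for it include mt-Rnr2, whose part in this shift was not tested. When replicate 2 of X-GFP–medium was left out, 1979 genes were higher and 2556 lower. With 2 libraries against 2, an exact permutation test of a single gene cannot go below p = 0.333, so all p-values come from the fit across genes.

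**Figure D1:**
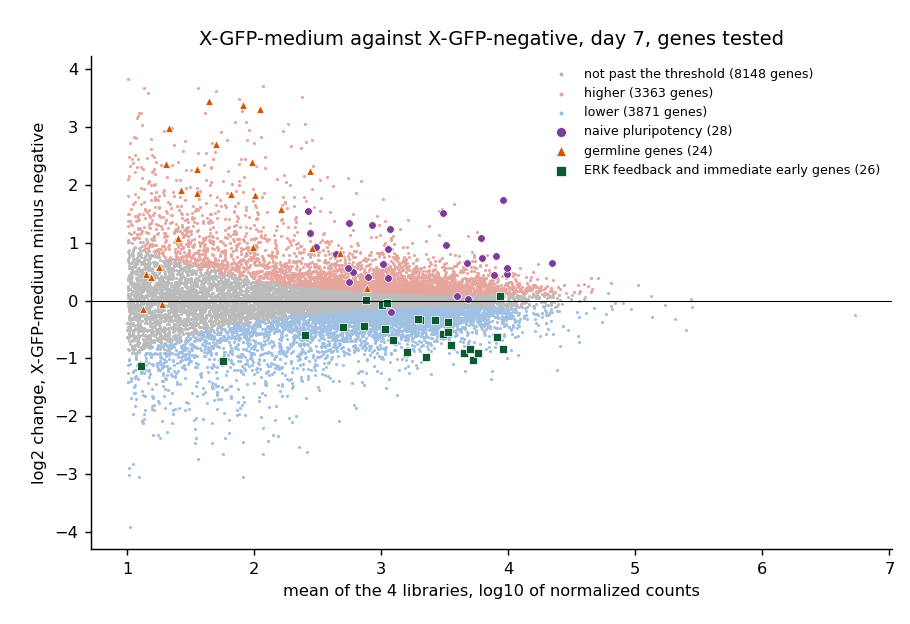
Log2 change of X-GFP–medium over X-GFP–negative cells (y axis) against the mean of the 4 libraries (x axis, log10 of normalized counts). Each point is 1 of 15382 genes, and larger symbols mark the members of 3 gene lists: germline genes reach log2 changes of 3.45, naive pluripotency genes lie mostly above 0 and immediate early genes mostly below.

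The genes that rose by at least 2-fold had median levels of 17.9 and 58.2 normalized counts in the negative and medium populations. In X-GFP–high cells their median was 136, in ESCs 138 and in NPCs 5.07. Those that fell by at least 2-fold had medians of 83.6, 29.7 and 19.4 in the negative, medium and high populations. Their median was 7.72 in ESCs and 67.2 in NPCs.

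Naive pluripotency genes rose together. Of 28 listed genes, all tested, 25 were higher and 1, Tfap2c, was lower, with a median log2 change of 0.70. Dppa5a, a KH domain protein of pluripotent cells, had 3978 and 4358 normalized counts in X-GFP–negative and 13762 and 14135 in X-GFP–medium libraries, 3.35-fold higher (log2 change 1.74 ± 0.06 SE, adjusted p = 3.86e-08, limma). Zfp42, the zinc finger protein also known as Rex1, had 1356 and 1848 against 4301 and 4808 (log2 change 1.52 ± 0.11 SE). The nuclear receptor gene Nr0b1, which is X-linked, had 114 and 156 against 379.5 and 402. None of these groups overlapped, which was a condition for naming genes by their rise. The 2 medium libraries lay close together in each case.

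The genes above were named for the largest rises of this list, so the other members had smaller log2 changes by that choice. Nanog had 4542 and 4823 normalized counts in X-GFP–negative and 7922 and 7714 in X-GFP–medium libraries, a log2 change of 0.74 ± 0.05 (SE, adjusted p = 3.02e-06, limma). Esrrb, an orphan nuclear receptor, rose by 1.08, from 3560.2 and 4227 to 7967 and 8437. Prdm14 and Sall4 rose by 0.57 and 0.44 on the log2 scale. Dppa4, a chromatin protein of pluripotent cells, rose by 1.31. L1td1 and Lin28a, 2 RNA-binding proteins, had log2 changes of 0.03 and 0.08 that did not pass the threshold, although Lin28a passed it with rescaled values (0.15). Without replicate 2 of X-GFP–negative, the log2 change of Lin28a was 0.13. Lin28a was at 3719 and 3977 against 4040.2 and 4091. Tfap2c, the member that was lower, was at 1254 and 1289.7 against 1066 and 1166, and its call was lost with DESeq2, with rescaled values and without replicate 1 of X-GFP–medium.

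Reads of the MKOS cassette cannot be separated from those of the endogenous genes. Pou5f1, which encodes Oct4, had 22417 and 23807 normalized counts in X-GFP–negative and 22692 and 22808 in X-GFP–medium libraries, with no change past the threshold and ranges that overlapped. Sox2 rose by 0.78 and Klf4 by 0.52 on the log2 scale, and Myc had a log2 change of 0.19 (adjusted p = 0.104, limma). Myc passed the threshold with DESeq2, with edgeR, with rescaled values and with the replicate number as a block. Its log2 change was 0.34 without replicate 2 of X-GFP–negative and 0.27 without replicate 1 of X-GFP–medium. Of the receptors for LIF, Lifr rose by 0.52 and Il6st by 0.20, and of the kinases and the factor downstream, Jak2 fell with a log2 change of -0.58, Jak1 with -0.25 and Stat3 with -0.30. In all, 3 of 12 listed genes of the LIF and STAT3 axis were higher and 3 lower, beside 21.9% and 25.2% of all genes tested. Without replicate 2 of X-GFP–medium, 1 was higher, and the call of Il6st was lost.

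Genes of the formative state and of Nodal signaling mostly went the other way, with 2 of 15 higher, 10 lower and a median log2 change of -0.41. Fgf5, a ligand gene that marks the exit from naive pluripotency, had 215 and 251 normalized counts in X-GFP–negative and 46.5 and 65.1 in X-GFP–medium libraries, 4.18-fold lower. Cer1, a secreted antagonist of Nodal, had 25.2 and 16.1 against 0.988 and 0, the latter being 1 read in total. Lefty1, a feedback inhibitor of Nodal, fell with a log2 change of -0.83, while Nodal itself rose by 0.29, a call that was lost without replicate 2 of X-GFP–medium. Foxd3, a forkhead factor, rose most, from 66.9 and 56.9 to 279.7 and 282 (4.54-fold, log2 change 2.17 ± 0.14 SE).

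**Figure D2:**
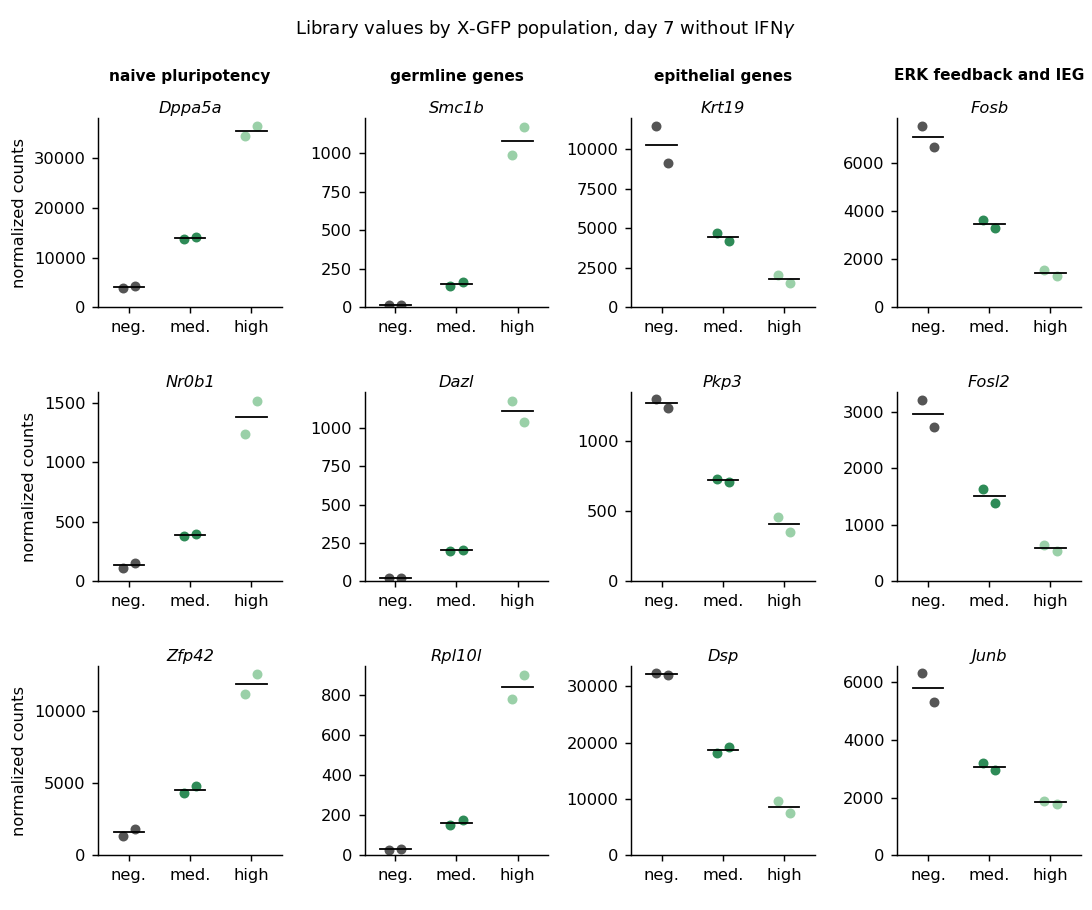
Normalized counts (y axis, from 0) in each library of the negative, medium and high X-GFP populations at day 7, with the mean as a bar. Each column shows, among genes with a group mean of at least 100, the 3 genes of 1 list with the largest rise (naive pluripotency, germline) or fall (epithelial, ERK feedback and immediate early genes, IEG). These 12 genes were also chosen so that the libraries of X-GFP–medium cells lie apart from those of X-GFP–negative cells.

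Germline genes had the highest median change of the lists with at least 10 tested genes. Of 34 listed genes, 24 passed the filter on low values, 18 of them were higher and 0 lower, and their median log2 change was 1.83. A low gene could enter the test through the population in which it was higher, so this median covers only the genes that entered. Dazl, an RNA-binding protein of germ cells, had 18.7 and 20.4 normalized counts in X-GFP–negative and 197 and 208 in X-GFP–medium libraries, 10.4-fold higher (log2 change 3.31 ± 0.19 SE, adjusted p = 7.62e-07, limma). Smc1b, a meiotic cohesin subunit, had 12.1 and 15.0 against 137 and 163 (11.1-fold). Both had low counts in X-GFP–negative cells, and the groups did not overlap, which the choice of these genes required.

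Further meiotic genes followed the same course. Stag3, also a subunit of meiotic cohesin, had 93.3 and 97.6 normalized counts against 461 and 443 (log2 change 2.23 ± 0.12 SE). Sycp3 and Hormad1, which encode components of the chromosome axis in meiosis, had 25.2 and 31.1 against 92.9 and 115 and 12.1 and 3.22 against 82.0 and 78.5. The X-GFP–negative libraries of Hormad1 differed from each other and both were far below the X-GFP–medium libraries. Rpl10l, a copy of a ribosomal protein gene used in the male germ line, rose from 28.5 and 31.1 to 149 and 175. Piwil2, a PIWI protein of the piRNA pathway, was at 621 and 799 against 824 and 816. Its log2 change of 0.22 did not pass the threshold (adjusted p = 0.126, limma). It did with edgeR, with rescaled values and with the replicate number as a block. Without replicate 2 of X-GFP–negative, the log2 change of Piwil2 was 0.40.

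The promoters of 3 of these genes are shown because each holds the hexamer CACGTG, an E-box that reads the same on both strands. The windows are 300 bases from RefSeq on GRCm38.p6, of which 250 lie before and 50 after the annotated start, written 5′ to 3′ in the direction of the gene, with CACGTG in capitals. Stag3 is on the plus strand at chr5:138280259-138280558, Hormad1 on the plus strand at chr3:95559427-95559726 and Sycp3 on the plus strand at chr10:88459337-88459636.
Stag3: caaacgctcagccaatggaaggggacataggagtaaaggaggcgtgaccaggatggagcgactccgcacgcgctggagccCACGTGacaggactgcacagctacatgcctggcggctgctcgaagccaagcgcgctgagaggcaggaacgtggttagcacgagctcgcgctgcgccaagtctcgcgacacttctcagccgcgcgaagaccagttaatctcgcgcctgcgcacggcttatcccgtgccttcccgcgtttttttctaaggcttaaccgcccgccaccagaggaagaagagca
Hormad1: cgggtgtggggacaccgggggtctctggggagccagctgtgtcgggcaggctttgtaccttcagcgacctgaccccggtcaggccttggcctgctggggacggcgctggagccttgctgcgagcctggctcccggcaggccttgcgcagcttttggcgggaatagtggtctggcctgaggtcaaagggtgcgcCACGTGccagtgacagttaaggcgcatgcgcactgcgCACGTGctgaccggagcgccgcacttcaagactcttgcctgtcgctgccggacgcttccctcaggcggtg
Sycp3: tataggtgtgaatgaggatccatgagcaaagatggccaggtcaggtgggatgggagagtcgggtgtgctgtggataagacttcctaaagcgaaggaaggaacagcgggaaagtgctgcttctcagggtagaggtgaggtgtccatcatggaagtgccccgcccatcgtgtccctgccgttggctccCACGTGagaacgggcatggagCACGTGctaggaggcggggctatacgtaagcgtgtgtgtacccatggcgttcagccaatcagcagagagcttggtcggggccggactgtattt
Of the 24 germline genes tested, 21 had a promoter window, and 9 of these (42.9%) held CACGTG on either strand. A gene with several windows was counted if any of them held it. The share was 11.5% of the genes tested that had a window, 14.2% of those that rose and 8.09% over all 27025 genes with a window. Among the 18 germline genes that rose, 17 had a window and 7 held the hexamer, and among the 6 that did not pass the threshold, 4 had a window and 2 held it. Dazl and Smc1b were among those with none. The number of CG dinucleotides, taken from the window of each gene with the most, had a median of 24 for the germline genes. It was 21 for the genes tested and 8 over all genes. These are counts of letters and say nothing about binding or methylation in these cells.

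The largest rise among genes with a group mean of at least 100 was that of Zfp980, from 11 and 22.5 to 205 and 232 normalized counts (13-fold, log2 change 3.71 ± 0.28 SE, adjusted p = 4.59e-06, limma). Zfp980 belongs to a cluster of zinc finger genes on chromosome 4. Between chr4:145510759-147848366 (GRCm38), the span of the cluster's Zfp genes, 29 genes were tested, of which 23 were higher and 1 lower, and their median log2 change was 1.56. Of 16 genes named Zfp, 15 were higher. This region was chosen after its values were seen, and its genes are close copies of each other, so that reads may be shared between them and single counts are uncertain. Zfp978, also in the cluster, had 19.7 and 15.0 against 132 and 178.

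The promoters of 4 cluster members are shown because they share a run of 17 bases, in capitals. The windows, again 300 bases of RefSeq on GRCm38.p6 in the direction of the gene, lie at chr4:145670447-145670746, chr4:146514670-146514969 and chr4:147305354-147305653 on the plus strand and at chr4:147702582-147702881 on the minus strand.
Zfp980: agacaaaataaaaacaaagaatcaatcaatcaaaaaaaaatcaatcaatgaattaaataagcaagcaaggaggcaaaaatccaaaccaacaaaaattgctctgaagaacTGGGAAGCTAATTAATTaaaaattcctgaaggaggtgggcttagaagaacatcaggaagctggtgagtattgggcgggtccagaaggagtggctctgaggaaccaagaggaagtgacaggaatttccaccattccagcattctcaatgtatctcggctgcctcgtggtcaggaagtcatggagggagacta
Zfp981: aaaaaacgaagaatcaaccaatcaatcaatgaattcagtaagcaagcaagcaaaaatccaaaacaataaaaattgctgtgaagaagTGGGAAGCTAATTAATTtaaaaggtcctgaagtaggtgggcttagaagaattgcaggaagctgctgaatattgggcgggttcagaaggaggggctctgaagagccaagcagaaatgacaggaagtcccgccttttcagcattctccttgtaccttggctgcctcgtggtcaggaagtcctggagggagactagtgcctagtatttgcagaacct
Zfp988: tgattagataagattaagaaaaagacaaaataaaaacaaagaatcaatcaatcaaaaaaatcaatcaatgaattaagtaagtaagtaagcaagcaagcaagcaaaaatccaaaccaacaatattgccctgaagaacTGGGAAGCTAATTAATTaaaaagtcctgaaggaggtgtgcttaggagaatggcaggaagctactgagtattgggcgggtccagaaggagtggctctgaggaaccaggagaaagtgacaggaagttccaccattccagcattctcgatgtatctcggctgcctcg
Zfp534: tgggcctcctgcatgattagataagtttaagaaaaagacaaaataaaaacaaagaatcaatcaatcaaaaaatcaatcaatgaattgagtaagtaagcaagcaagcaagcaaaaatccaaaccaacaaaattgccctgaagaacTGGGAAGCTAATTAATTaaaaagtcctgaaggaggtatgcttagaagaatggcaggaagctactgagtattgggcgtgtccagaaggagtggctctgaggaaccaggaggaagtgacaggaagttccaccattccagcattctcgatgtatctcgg
Of 32851 promoter windows, 9 held this run, all of them from genes of this cluster, and all 9 genes were tested and higher in X-GFP–medium cells. Their levels were low in X-GFP–negative cells, such as 23.0 and 27.9 normalized counts of Zfp981 against 176 and 171 in X-GFP–medium libraries. The run was taken as the longest one shared by the 4 genes shown, which are among the 9. The region was chosen after its values were seen and had 15 of 16 Zfp genes higher, so the 9 genes add no separate support. In contrast to the germline promoters above, each of these 4 windows held 3 or 4 CG dinucleotides.

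The other large rises by the same rule were those of Rpl39l and Tuba3b, copies of a ribosomal protein and of an α-tubulin gene, and of P4ha3, Gpat2, Ooep and Slc1a1. Rpl39l had 29.6 and 46.1 normalized counts against 444 and 427 (11.5-fold) and Tuba3b 15.4 and 8.58 against 155 and 124 (11.7-fold). Ooep, an oocyte protein, rose 8.39-fold, Gpat2, an acyltransferase gene, 9.01-fold, P4ha3, a prolyl hydroxylase subunit, 10.3-fold, and Slc1a1, a glutamate transporter, 8.33-fold. Genes of the 2-cell stage were hardly detected, with 1 of 16 listed genes tested, Usp17le, which did not pass the threshold, and summed levels of 24.1 to 61.3 normalized counts in the 4 libraries.

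Genes of DNA replication and mitosis were mostly higher. Of 30 genes, 28 were higher, 1 lower, and the median log2 change was 0.38. E2f1, a transcription factor of S-phase entry, and Pold1, the catalytic subunit of DNA polymerase δ, rose by 0.67 and 0.69 on the log2 scale. Ccne1, a cyclin of the G1-S transition, had 543 and 629 normalized counts against 967 and 1044 and rose most, by 0.78. Ccne2, the other cyclin E gene, was the member that was lower (-0.20, adjusted p = 0.0889, limma), a call that was lost with DESeq2, with edgeR, with rescaled values and without replicate 1 of either population. Mki67 had a log2 change of 0.05 that did not pass the threshold, although it did with rescaled values (0.13). Among 18 genes of the p53 pathway and inhibitors of cyclin-dependent kinases, 4 were higher and 6 lower, beside 21.9% and 25.2% of all genes tested. The inhibitor genes Cdkn1b and Cdkn2b fell with log2 changes of -0.56 and -0.73, Trp53, which encodes p53, rose by 0.55, and Mdm2, its ubiquitin ligase, was at 6569.7 and 6379 against 6238 and 5957.

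Of 30 nuclear genes of the respiratory chain, 18 were higher and 0 lower, with a median log2 change of 0.15. Cox7b and Ndufa1, X-linked subunits of complexes IV and I, rose by 0.54 and 0.44. Of 7 tested protein-coding genes of the mitochondrial genome, 3 were higher and 0 lower, and 1 was higher without replicate 2 of X-GFP–medium, 5 higher without replicate 2 of X-GFP–negative and 2 lower without its replicate 1. Without replicate 1 of X-GFP–medium, 8 nuclear genes were higher, and without replicate 2, 12. Glycolysis genes were split, with 6 of 23 higher and 10 lower. Slc2a1, the glucose transporter GLUT1, had 47505 and 41843 normalized counts against 27132 and 26860.0 (log2 change -0.72 ± 0.06 SE), and Pfkfb3, a regulator of phosphofructokinase, fell with -0.85, whereas Ldhb and Pfkp rose by 0.61 and 0.40. After replicate 2 of X-GFP–medium was left out, 3 glycolysis genes were higher and 7 lower.

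**Figure D3:**
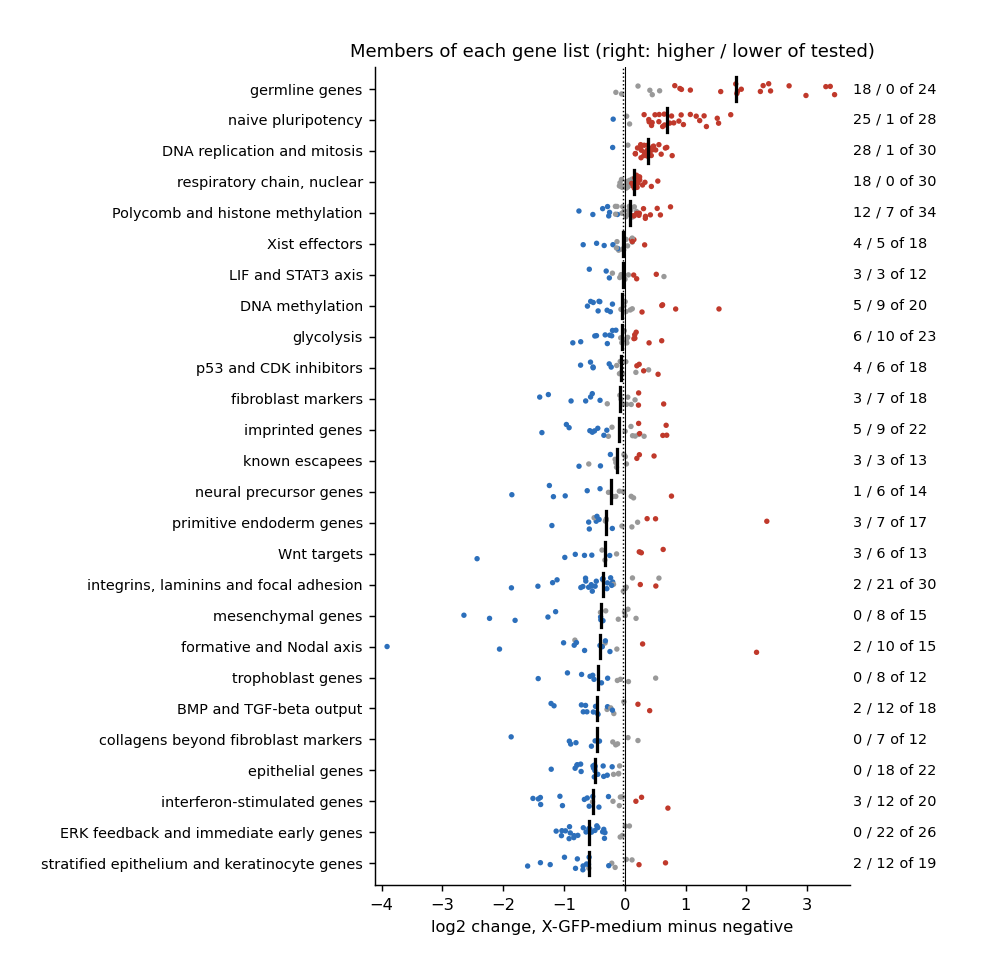
Log2 change of X-GFP–medium over X-GFP–negative cells (x axis) of the tested members of each gene list with at least 10 of them, ordered by the median (black bar). Red points passed the threshold upward, blue points downward and gray points did not pass it, the dotted line is the median over all genes, and the numbers at the right give higher / lower of tested, from 18 / 0 of 24 germline genes to 2 / 12 of 19 keratinocyte genes.

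Immediate early genes and feedback genes of ERK signaling fell in most cases. Of 26 genes, 0 were higher and 22 lower, with a median log2 change of -0.58. Fosb, a subunit of AP-1, had 7544 and 6645 normalized counts in X-GFP–negative and 3641 and 3285 in X-GFP–medium libraries (log2 change -1.03 ± 0.07 SE, adjusted p = 2.24e-06, limma). Fosl2 and Junb, which also encode AP-1 subunits, had 3212 and 2728 against 1637 and 1386 and 6321 and 5297 against 3200.1 and 2943. The members that did not pass the threshold were Etv4, Etv5, Spred2 and Spry2, with log2 changes between -0.07 and 0.08. Etv5 was at 8243 and 8515 normalized counts against 8894 and 8782, and was higher with rescaled values and with the replicate number as a block.

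Epithelial genes were lower too, with 0 of 22 higher, 18 lower and a median log2 change of -0.49. Krt19, a simple keratin, had 11472 and 9141 normalized counts against 4682 and 4191, 2.32-fold lower. Dsp, the desmosomal plaque protein desmoplakin, had 32315 and 32103 against 18147 and 19224 (log2 change -0.79 ± 0.05 SE). Pkp3, the desmosomal protein plakophilin-3, fell with -0.82. Cdh1, which encodes E-cadherin, was at 16618 and 16399 against 15190.3 and 15622, a log2 change of -0.10 that did not pass the threshold. With the replicate number as a block, Cdh1 passed it. Keratinocyte genes showed a median of -0.60, with 2 of 19 higher and 12 lower, among them Krt7, a keratin, at 1401 and 1195 against 559 and 546 and Sprr1a, a protein of the cornified envelope, with a log2 change of -1.39. Dsg3, a desmoglein, rose by 0.67, and 1 keratinocyte gene was higher without replicate 2 of X-GFP–medium or replicate 1 of X-GFP–negative. In a single fit of all 24 libraries, 7 epithelial and 6 keratinocyte genes were lower.

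Among mesenchymal genes 0 of 15 tested were higher and 8 lower. Vim, an intermediate filament gene that was high in NPCs with 37743 and 43344 normalized counts, had 1007 and 874 in X-GFP–negative and 262 and 275 in X-GFP–medium libraries, 3.51-fold lower (log2 change -1.80 ± 0.09 SE). Zeb2, a repressor of epithelial genes, and the receptor kinase gene Axl fell with -1.14 and -1.26. In bulk libraries, fewer cells of a type and less RNA per cell cannot be told apart. Fn1, which encodes fibronectin, was at 19513 and 20865 against 20964 and 20907, with no change past the threshold except with rescaled values (log2 change 0.13). In a single fit of all 24 libraries, 5 mesenchymal genes were lower.

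Fibroblast markers were split, with 3 of 18 higher and 7 lower and a median of -0.07. Fstl1 and Col5a2 fell with log2 changes of -1.26 and -0.64, whereas Dcn, a proteoglycan of fibroblasts, rose by 0.23 and Col1a1 was at 151 and 133 against 126 and 144. With DESeq2 on the recovered reads, 4 were lower, and without replicate 1 of X-GFP–medium, 1 was higher and the call of Dcn was lost. Of 14 neural precursor genes tested, 1 was higher and 6 lower. Sox9, a transcription factor of neural stem cells, had 136 and 105 against 30.6 and 34.1 (log2 change -1.86 ± 0.20 SE). Pax6 and Sox11 fell with -1.24 and -1.17, and Tubb3, a neuronal tubulin, rose by 0.77.

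Genes of cell-matrix adhesion were mostly lower, with 2 of 30 integrin, laminin and focal adhesion genes higher and 21 lower (median log2 change -0.36). Cav1, the main protein of caveolae, had 1079.6 and 916 normalized counts against 286 and 260.2, 3.66-fold lower. The integrin gene Itgb6 and Thbs1, which encodes thrombospondin-1, fell with -1.19 and -1.11, the integrin gene Itga9 rose by 0.51, and the X-linked actin crosslinker gene Flna was at 11999 and 13405 against 12362 and 13189. Without replicate 2 of X-GFP–medium, 1 of these genes was higher. Of 12 further collagen genes, 0 were higher and 7 lower, the latter becoming 3 lower with DESeq2 and 4 without replicate 2 of X-GFP–medium, and 1 was higher without that library or without replicate 1 of X-GFP–negative.

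Targets and components of BMP and TGF-β signaling were lower in 12 of 18 cases and higher in 2. Id1, a target of BMP, and Inhbb, an activin subunit, fell with log2 changes of -0.64 and -0.62, whereas the ligand gene Bmp4 rose by 0.41. With DESeq2 and without replicate 2 of X-GFP–medium, 0 of these genes were higher and 9 lower. Without replicate 1 of X-GFP–medium or replicate 2 of X-GFP–negative, 1 was higher. Of 13 Wnt targets, 3 were higher and 6 lower. T (Brachyury), a mesoderm factor, had 251 and 183 against 43.5 and 35.1, 5.53-fold lower, and Lef1, a transcription factor of the pathway, rose by 0.63. With DESeq2 these counts were 1 and 3, and without replicate 1 of X-GFP–medium 1 and 4.

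Lineage markers outside the embryo proper were mixed. Of 17 primitive endoderm genes, 3 were higher and 7 lower. Dab2, an endocytic adaptor, and Sparc, a matrix protein, fell with -1.20 and -0.58, and Lama1, a laminin chain, rose by 0.51. The call of Lama1 was lost with DESeq2 and with no filter, and its log2 change was 0.25 and 0.76 without replicate 1 and 2 of X-GFP–negative. Gata4, a transcription factor of this lineage, rose by 0.37, a call that was lost without replicate 1 of X-GFP–medium. Of 12 trophoblast genes, 0 were higher and 8 lower, with the transcription factor gene Elf5 at 312 and 269 against 118 and 98.1. In the fit of all 24 libraries, 4 primitive endoderm and 4 trophoblast genes were lower.

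Interferon-stimulated genes were mostly lower in X-GFP–medium cells, and neither population had been treated with IFNγ. Of 20 genes, 3 were higher and 12 lower, with a median log2 change of -0.53. Gbp2, an interferon-induced GTPase, had 854 and 855 normalized counts against 346 and 293 (log2 change -1.42 ± 0.10 SE). Gbp3, of the same family, and Psmb8, an immunoproteasome subunit, fell with -1.39 and -1.07. B2m, the light chain of MHC class I, was at 4089 and 3752 against 3834 and 3538, with no change past the threshold except with the replicate number as a block. Ifitm3, a membrane protein also expressed in pluripotent cells, rose by 0.71. Without replicate 2 of X-GFP–medium, 1 of these genes was higher.

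The largest falls by the rule for named genes were those of Sim2, Thsd7a, Tchh, Prom2, Il1a, T, Itih5, Card14, Tmem54 and Crispld1. Sim2, a bHLH-PAS transcription factor, had 191 and 99.8 normalized counts in X-GFP–negative and 18.8 and 13.4 in X-GFP–medium libraries (9.03-fold lower, log2 change -3.04 ± 0.30 SE). The X-GFP–negative libraries of Sim2 also differed from each other. Tchh, a structural protein of hair follicle sheath cells, had 452 and 441 against 70.2 and 73.3, and Prom2, a relative of prominin-1, 419 and 345 against 67.2 and 63.0. Il1a, the cytokine interleukin-1α, had 149 and 129 against 26.7 and 22.7. In each of these genes the groups did not overlap, as the rule required.

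Among regulators of DNA methylation, 5 of 20 were higher and 9 lower. Dnmt3l, a cofactor of the de novo methyltransferases, had 1382 and 1487 normalized counts against 4089 and 4317, 2.93-fold higher (log2 change 1.55 ± 0.06 SE, adjusted p = 2.39e-07, limma). Dnmt3b, one of these methyltransferases, was at 1703 and 2211 against 1861 and 2085 without a change past the threshold, and its log2 change was -0.17 without replicate 1 of X-GFP–negative and 0.21 without replicate 2. Tet1, a dioxygenase that oxidizes methylcytosine, rose by 0.84, and its relative Tet3 fell with -0.56. The maintenance factor Uhrf1 rose by 0.62. Without replicate 2 of X-GFP–medium, 5 genes were lower.

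Polycomb and histone methylation genes were higher in 12 of 34 cases and lower in 7. Eed, a core subunit of PRC2, rose by 0.53 on the log2 scale and the accessory subunit Mtf2 by 0.75, while the methyltransferase gene Ehmt2 was at 5047 and 4998 against 5087 and 4897. Cbx6, a chromobox subunit of PRC1, fell with -0.52. With DESeq2, 7 of these genes were higher and 5 lower, and without replicate 2 of X-GFP–medium 7 and 4. Of 22 imprinted genes, 5 were higher and 9 lower. H19, a maternally expressed noncoding RNA, had 11526 and 9538 against 4369 and 3807, 2.58-fold lower, whereas its neighbor Igf2 had 4113 and 4262 against 6783 and 6734, 1.61-fold higher. The paternally expressed genes Peg3 and Nnat fell with -0.91 and -0.96. With DESeq2, 2 imprinted genes were higher and 9 lower, without replicate 1 of X-GFP–medium 2 and 10, and without replicate 2 of X-GFP–medium 3 and 8.

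At the X-inactivation center, 2 of 7 tested genes were higher and 3 lower. Xist (chrX:103460366-103483254, GRCm38, minus strand) had 5946 and 6112 normalized counts in X-GFP–negative and 3569 and 3634 in X-GFP–medium libraries, 1.67-fold lower (log2 change -0.74 ± 0.05 SE, adjusted p = 2.38e-06, limma). Tsix, transcribed antisense to Xist and its repressor in cis, had 54.9 and 60.1 against 146 and 161, 2.67-fold higher. In this line Tsix is truncated on X mus, the chromosome from which almost all Xist RNA came. A link between the Tsix rise and the Xist fall was not tested. The kit preserves strand but the strand setting of the counting is not given, so if strand was not used, reads of Xist and Tsix cannot be told apart. In X-GFP–high cells Xist was at 1652 and 1357 and Tsix at 473 and 564. The Xist libraries were closely grouped within each population.

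Ftx, a noncoding activator of Xist, was lower, with 405 and 376 normalized counts against 284 and 308 (log2 change -0.40). Rlim, which encodes the ubiquitin ligase RNF12 that activates Xist by degrading Rex1, was at 17181 and 16817 against 16107 and 16412 (log2 change -0.06 ± 0.05 SE). Its change did not pass the threshold. Chic1 rose by 0.20, a call that was lost with DESeq2, with all 24 libraries in a single fit and without replicate 2 of either population. Over all genes tested, 21.9% were higher and 25.2% lower. Of 18 genes that act with Xist in silencing, 4 were higher and 5 lower, with Pcgf5, a subunit of a PRC1 complex, at -0.68 and Hnrnpk, an RNA-binding protein that bridges Xist and PRC1, at 18161 and 18010.2 normalized counts against 17617 and 18140.0. Without either X-GFP–medium library, 1 was higher and 3 lower, and without replicate 1 of X-GFP–negative 1 was higher.

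Over the X chromosome, 554 genes were tested, of which 175 (31.6%) were higher and 95 (17.1%) lower. Of 14622 autosomal genes, 3151 (21.5%) were higher and 3752 (25.7%) lower. The median log2 change was 0.06 for X-linked and -0.02 for autosomal genes, and 0.13 and 0.05 with rescaled values. X-linked genes took 2.87% and 2.90% of the total without mitochondrial genes in X-GFP–negative and 3.21% and 3.26% in X-GFP–medium libraries. Single X-linked genes were spread on both sides of 0, with quartiles of -0.17 and 0.33.

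The deposited proportions of allelic expression show how much of each X-linked transcript came from X mus. They cover 316 genes, with 1 value per population. These values have no replicate error and the reads behind them are not given, so their depth is unknown. The study describes a filter for protein-coding genes above a set share of expression from the CAST/EiJ X (X cas) in all populations. Xist is among the 316 genes all the same. The medians below hold for this selection and not for all X-linked genes. Genes with a proportion of at most 0.1 in NPCs, 289 in number, were taken as silenced and 27 as escaping. This cut is lower than the one the study used. In silenced genes the median X mus proportion was 0.00685 in the negative, 0.101 in the medium and 0.323 in the high population, and 0.472 in ESCs. The median gain from the negative to the medium population was 0.0857, with 270 genes up, 14 without change and 5 down.

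Fewer genes were without X mus expression in X-GFP–medium cells. In X-GFP–negative cells 88 silenced genes had an X mus proportion of 0, and in X-GFP–medium cells 16. A proportion of at least 0.1 was reached by 19, 146 and 269 silenced genes in the negative, medium and high populations. In genes escaping in NPCs the median went from 0.196 to 0.323, a median gain of 0.119. The escaping genes include Xist, whose X mus proportion was 0.999 in X-GFP–negative and 0.996 in X-GFP–medium cells. Xist RNA was thus almost entirely from X mus in both populations while its level fell.

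**Figure D4:**
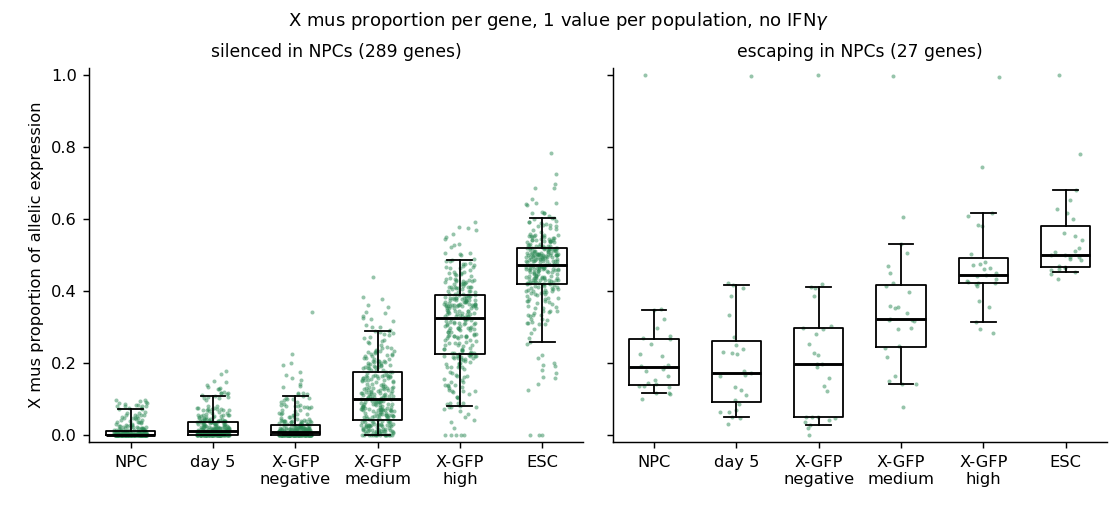
Proportion of allelic expression from X mus (y axis) in each population without IFNγ, for genes silenced (left) or escaping (right) in NPCs. Each point is 1 gene with 1 value per population, boxes give quartiles and whiskers the 5th and 95th percentiles. The median of the silenced genes is 0.00685 in the negative and 0.101 in the medium population.

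Apln, Bex3, Upf3b and Fgd1 were among the silenced genes with the largest gains. Apln, which encodes the peptide apelin, went from 0 to 0.362. Upf3b, a factor of nonsense-mediated decay, went from 0.0385 to 0.317. The total of Apln was at 39.5 and 60.1 normalized counts against 36.6 and 23.7. Its log2 change of -0.71 passed the threshold, but not with DESeq2, with no filter, with rescaled values, with all 24 libraries in a single fit, or without replicate 2 of X-GFP–negative (-0.41) or of X-GFP–medium (-0.40). At the other end, Sh3bgrl, with low X mus proportions at day 7, went from 0.00437 to 0.00384 and had reached 0.0178 in X-GFP–high cells. The proportions of Tmem29, Cited1, Ccdc160 and Spin2c also went down, from 0.340 to 0.106 for Tmem29, a gene with a mean of 59.1 normalized counts. Rlim itself gained X mus expression, from 0.00497 to 0.0918, with no change of its total past the threshold.

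Gains near the reporter and near Xist are given as medians. The 30 silenced genes within 10 Mb of Hprt had a median gain of 0.0923, and the 259 genes beyond had 0.0857. Around Xist the median was 0.0691 for the 52 genes within 10 Mb and 0.0949 for the 237 genes beyond. These are differences of medians over genes of 1 pair of values each, and no test was made.

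Gains in allelic share were not always gains in level. Of 288 silenced genes tested, 104 were higher and 57 lower. A larger X mus proportion in X-GFP–medium cells was seen for 52 of the 57 lower genes and for 270 of all 289 silenced genes. When the total was multiplied by the X cas proportion, the X cas part had a median log2 change of -0.10, against -0.02 for autosomal totals. Spearman's rho between the gain and the log2 change of the total was 0.43 over the 288 genes. This is a description across genes of the same libraries, which are not independent, and the X mus share enters both measures. The third of silenced genes with the smallest gains had a median log2 change of -0.14, and the third with the largest gains 0.27.

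**Figure D5:**
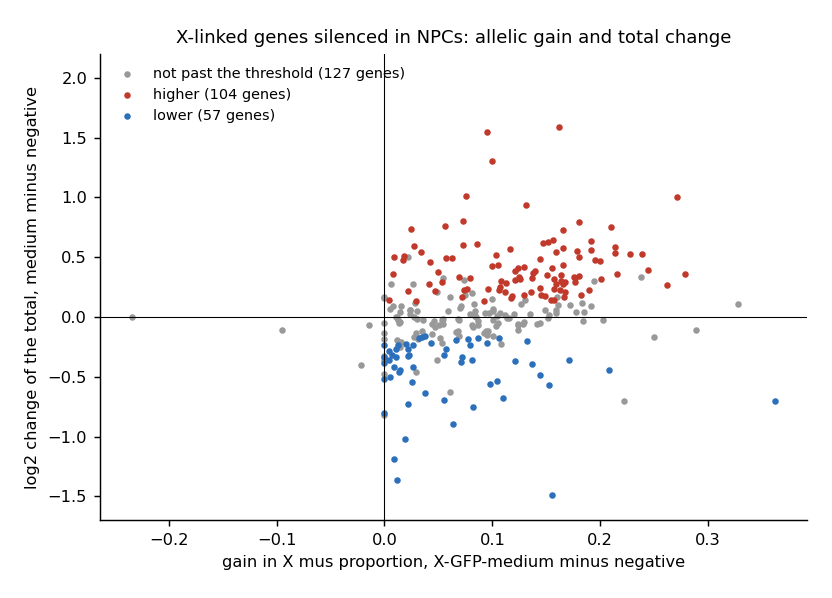
Gain in X mus proportion (x axis) and log2 change of the total level (y axis) from X-GFP–negative to X-GFP–medium cells for 288 genes silenced in NPCs. Points are colored by the result for the total, and 52 of the 57 genes that were lower lie to the right of 0. Of all 289 silenced genes, 270 had a gain.

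Of 13 known escapees, 3 were higher and 3 lower, beside 31.6% and 17.1% of the X-linked genes tested. Utp14a, a ribosome biogenesis factor, rose by 0.48 on the log2 scale and its X mus proportion went from 0.419 to 0.530. Kdm6a, a histone demethylase gene, was lower with -0.24, and its proportion went from 0.409 to 0.469. Kdm5c and Ddx3x were at log2 changes of -0.01 and 0.01, which did not pass the threshold. Of 3 tested genes of the Rhox cluster, Rhox5 was higher, with 206 and 267 normalized counts against 623 and 601. Leaving out replicate 2 of X-GFP–medium left 1 known escapee higher.

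The same step in IFNγ-treated cells shares no library with this one, so the difference could be tested. IFNγ had been given at 10 ng/ml from day 0 to day 5. Of 15627 genes, 2449 (15.7%) had a different step, 1142 (7.31%) more positive with IFNγ and 1307 (8.36%) more negative. These counts depended on the scaling, since rescaled values gave 399 and 2867 and moved the median of all genes by -0.16. Of 20 interferon-stimulated genes, 13 were more negative with IFNγ and 0 more positive, and 14 and 0 with rescaled values. With IFNγ, the 22 listed genes summed to 36939 and 34851 normalized counts in X-GFP–negative and 14174 and 15919 in X-GFP–medium libraries. Without IFNγ, the sums were 16192 and 15600 against 13857 and 13321, so the populations differed more in the X-GFP–negative than in the X-GFP–medium libraries. Over all genes, leaving out 1 library gave 396 to 1421 more positive and 591 to 1846 more negative, with the lower counts without either X-GFP–medium library, replicate 1 of X-GFP–negative or, with IFNγ, replicate 2 of X-GFP–negative and replicate 1 of X-GFP–medium. Xist had a steeper fall with IFNγ, with a step of -1.54 against -0.74 without it (difference -0.79 ± 0.08 SE, adjusted p = 5.49e-04, limma).

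Of 15 mesenchymal genes, 1 was more positive and 8 more negative with IFNγ, and of 22 imprinted genes 2 and 10. Vim had steps of -1.80 without and -2.91 with IFNγ, and Peg3 -0.91 and -1.92. Germline genes had 5 of 24 more positive and 0 more negative, and 3 and 0 with rescaled values. Of 28 naive pluripotency genes, 6 were more positive and 1 more negative, which became 4 and 5 with rescaled values. Nanog had steps of 0.74 and 0.79, a difference of 0.05 ± 0.09 that did not pass the threshold (adjusted p = 0.784, limma). In silenced X-linked genes the median gain in X mus proportion was 0.191 with IFNγ and 0.0857 without.

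The following step, to X-GFP–high, shares the X-GFP–medium libraries with this one, so an error in these libraries moves the steps in opposite directions. Of 15502 genes, 2355 (15.2%) had a second step that differed from the first, 858 (5.53%) above it and 1497 (9.66%) below it. Without replicate 1 or 2 of X-GFP–medium, 147 and 145 genes lay above and 409 and 379 below, and without replicate 2 of X-GFP–high 525 lay above. Among those with the largest difference were genes that turned between the steps. Igf2 had 4113 and 4262, 6783 and 6734 and then 2746 and 2378 normalized counts in the negative, medium and high libraries, highest in the middle population. Vim had 1007 and 874, 262 and 275 and 439 and 492, lowest in the middle, and its steps differed by 2.59 ± 0.17 (SE, adjusted p = 1.52e-05, limma).

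Another gene with such a turn was the protease gene Prss32, with 112 and 114, 294 and 311 and 151 and 107 normalized counts. In silenced X-linked genes the second step of the X mus proportion had a median gain of 0.193, against 0.0857 for the first. The medians of the second step were 0.71 for naive pluripotency, 1.75 for germline and -0.68 for epithelial genes, beside 0.70, 1.83 and -0.49 for the first. Formative and Nodal genes had a median of 0.64 in the second step, beside -0.41 in the first, and Wnt targets 0.37 beside -0.33.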

How the data were processed

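RNA was sequenced from 24 libraries. The authors aligned reads with STAR to mm10, in which positions that differ between the strains were masked, counted them per gene with HTSeq 0.6.1 and deposited counts normalized with DESeq2, used here as a signal that is comparable between libraries. They also deposited X mus proportions, a fraction per gene and population. The strand setting of the counting and the annotation release are not given in the sources used here. Reads were recovered from the normalized counts of all but 3 libraries, none of which is in the main comparison, 100% of the values being whole multiples of 1 read within 0.01 read.

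Genes with a mean above 10 were tested with limma 3.58.1 in R 4.3.3 (lmFit, eBayes with trend) on log2(normalized count + 1), with Benjamini-Hochberg adjustment, a two-sided test and a threshold of 0.1. Differences between steps were tested as interactions. DESeq2 1.42.0 and edgeR 4.0.16 on recovered reads, another pseudocount, no filter, rescaled totals, a single fit of 24 libraries, a replicate block and leaving out each library were the alternatives. The scripts were tested on simulated data. Coordinates came from GENCODE on GRCm38, in which 95.22% of identifiers were found.

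The genes and lists were chosen with earlier results of these data known. Named genes are those of the X-inactivation center and a pluripotency score, the 10 largest changes in each direction and up to 3 per list and direction, given libraries that do not overlap and 100 or more normalized counts as a group mean. Up to 3 abundant members per list that did not pass, the 5 largest and 5 smallest allelic gains, known escapees and the 5 largest differences between steps per direction complete the rule. Outside it, Cer1, Hormad1, Stag3, Sycp3 and Zfp981 were named after their values were seen. Some genes that the rule takes are not reported here.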

Additional observations from a re-analysis of the deposited data

Results flagged for a closer look

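The step from X-GFP–negative to X-GFP–medium differed between IFNγ-treated and control cells for many genes by a test of the interaction in limma. The step was more positive with IFNγ for 1142 genes and more negative for 1307. Among genes with a group mean of at least 100 normalized counts, the 5 with the most negative differences on the log2 scale were Asb4 (-3.85), Slc44a5 (-3.43), Fndc3c1 (-3.02), Dgkk (-3.01) and Rspo3 (-2.98). Asb4, Slc44a5 and Dgkk were low in both control populations. Fndc3c1, an X-linked gene, had 195 and 262 normalized counts in X-GFP–negative and 220 and 226 in X-GFP–medium control libraries, and 357 and 493 against 44.8 and 56.5 with IFNγ. Rspo3, an agonist of Wnt signaling, had 27.4 and 20.4 against 6.92 and 8.26 in control and 210 and 251 against 10.1 and 8.36 in IFNγ-treated cells.

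The 5 most positive differences were those of Myh14 (1.49), E330020D12Rik (1.51), Rhov (1.54), AI481877 (1.67) and Ace (1.72). Ace, which encodes angiotensin-converting enzyme, had 443 and 440 normalized counts in X-GFP–negative and 268 and 263 in X-GFP–medium control libraries, and 105 and 103 against 199 and 217 with IFNγ. Myh14, a nonmuscle myosin gene, had 1345 and 999 against 592 and 579 in control cells and 387 and 362 against 535 and 528 with IFNγ. In both genes, the control populations fell where the IFNγ-treated ones rose.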

How the results depend on the processing

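Of 3007 pairs of a named gene and an alternative, 2787 kept direction and side of the threshold, 131 lost the call and 86 gained it. Of 174 named genes past the threshold, 128 were past it under every alternative that was run. Among those lost in the fit of all 24 libraries were Bmp4, Col5a2, Dcn, Dsg3, Gata4, Igf2, Il6st, Nodal and Pkp3. In 3 genes the sign turned with an X-GFP–negative library left out, and the cause was not tested. Without replicates 1 and 2, Ccn2 had 0.18 and -0.21, Dnmt3b -0.17 and 0.21, and mt-Nd4 -0.20 and 0.18.

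DESeq2 gave 2554 lower genes. Leaving out 1 library gave 1979 to 3746 higher and 2556 to 4096 lower genes, lowest without replicate 2 of X-GFP–medium. Where this left 1 library in a population, it was taken to vary like the other. For the difference with IFNγ (1142 more positive, 1307 more negative, 2449 in all), no filter on low values gave 681, 867 and 1548, rescaled values 399 and 2867, and the fit of 24 libraries 629 more positive and 1514 in all. Leaving out a library gave 396 to 1421, 591 to 1846 and 987 to 3267. For the second step against the first (858 above, 1497 below, 2355 in all), no filter gave 343, 724 and 1067, the fit of 24 libraries 231, 293 and 524, DESeq2 436, 883 and 1319, and leaving out a library 145 to 1036, 379 to 1679 and 524 to 2715. The median of X-linked genes, 0.06, was 0.0876 with no filter, 0.132 with rescaled values and 0.0463 to 0.0644 with a library left out. The median X mus gain was 0.105 for genes with a mean of at least 500.

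Deviations of same-numbered libraries correlated with r = 0.157 over 15382 genes, with only 2 pairs and no pairing stated. With the replicate number as a block, 4095 genes were higher and 4674 lower, 2071 and 2119 (4190 in all) differed with IFNγ, and 1671 and 2300 (3971 in all) between steps. Count tests of the difference with IFNγ were not run, since reads were not recovered from 1 of its libraries. The 2 libraries per population and allelic values without read numbers limit precision.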
